A study of Mus musculus with 24 samples.

Results

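Potassium channel genes were followed through 3 sorted cell populations of the mouse cerebral cortex at embryonic age E15.5, with and without the transcription factor Prdm16. The genes were all protein-coding genes whose symbol starts with Kcn, apart from Kcnj8, that reached 1 CPM in at least 4 of 24 libraries. CPM is the usual scaling of a gene's counts to the library total. Of 93 such genes listed, 60 met this rule, which is 64.5% of them, against 61.8% of all protein-coding genes listed. The rule used the level in any library and not the difference between groups. Nearest to the limit, the fourth highest library was at 1.01 CPM for Kcns3, 1.41 CPM for Kcnk7 and 1.46 CPM for Kcnj5 inside it, and at 0.965 CPM for Kcnj6, 0.756 CPM for Kcnk12 and 0.717 CPM for Kcnj14 outside it.

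The knockout (KO) carried a Prdm16 allele with loxP sites on both chromosomes (Prdm16 flox/flox) and Cre recombinase expressed from the Emx1 locus (Emx1 Ires-Cre), which is active in the progenitors of the dorsal forebrain. The control, labelled WT, carried Prdm16 flox/flox without Cre, so floxed alleles were common to both genotypes and Cre was present in KO only. The sort gave PAX6+ cells (radial glia by their label), TBR2+ cells (intermediate progenitors) and PAX6-TBR2- cells (neurons), with 4 libraries for each genotype and population. The 4 libraries of a group are called biological replicates in the study's description, but which embryos each came from is not stated.

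Potassium channels let potassium ions leave the cell and so set the resting potential and end the action potential. Voltage-gated (Kv) channels are built from 4 alpha subunits of one subfamily, often with accessory beta or KChIP proteins, and the silent Kv subunits only work in assemblies with Kv2 subunits. Inward rectifiers (Kir) and two-pore (K2P) channels hold the resting potential, and in glia Kir channels also take up potassium, while SK and BK channels open on calcium entry and sodium-activated channels on sodium entry. In the developing cortex radial glia divide at the ventricle, intermediate progenitors divide in the subventricular zone, and neurons acquire the ion channels for firing as they mature.

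Library totals were 7620760 to 11271942 counts in KO and 7752824 to 12554161 in WT PAX6+ cells. They were 6402081 to 8215667 in KO and 6416422 to 7599112 in WT TBR2+ cells, and 6392976 to 8230729 in KO and 4948977 to 30027954 in WT PAX6-TBR2- cells. One count was worth 0.0333 to 0.202 CPM, so single low values rest on few reads. Mitochondrial genes took 11.3% to 39.3% of a library. Each population came from sequencing libraries with a name prefix of its own, so population and library batch cannot be told apart. Prdm16 itself averaged 188 ± 27.8 CPM in KO and 256 ± 34.7 CPM in WT PAX6+ cells (SD, n = 4 each), and the 2 ranges, 160.5 to 227 CPM in KO and 213 to 295 CPM in WT, overlapped. The floxed exons are not named, so a count over the whole gene does not measure the deletion. Summed radial glia markers were at 3242 to 3837 CPM in KO and 2876 to 3380 CPM in WT PAX6+ cells, and at 706.5 CPM or less elsewhere. Neuron markers were at 352 to 369.6 CPM in KO and 336 to 411 CPM in WT PAX6+ cells. They were at 4492 to 6094 CPM in KO and 4909 to 5943 CPM in WT TBR2+ cells, near the 5742 to 6416 CPM in KO and 6027 to 6560.0 CPM in WT of PAX6-TBR2- cells. Intermediate progenitor markers peaked in TBR2+ cells, at 1791 to 2399.5 CPM in KO and 2126 to 2507 CPM in WT. Interneuron markers were at 456 to 1106 CPM in KO and 338 to 981 CPM in WT PAX6-TBR2- cells and at 28.6 CPM or less in the other populations. In these bulk libraries fewer cells of a type and less RNA per cell cannot be told apart.

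Potassium channel transcripts were less abundant in PAX6+ and TBR2+ cells than in PAX6-TBR2- cells, and their make-up differed between populations. Summed over the 60 genes and divided by exon length, their level was 116 ± 9.74 CPM per kb in KO and 123 ± 4.55 CPM per kb in WT PAX6+ cells, 162 ± 10.3 in KO and 152 ± 8.56 in WT TBR2+ cells, and 290.2 ± 22.4 in KO and 271 ± 14.1 in WT PAX6-TBR2- cells (SD, n = 4 each). A mean of 1 CPM or more was reached by 43 genes in KO and 36 in WT PAX6+ cells, 53 in KO and 51 in WT TBR2+ cells, and 55 in KO and 54 in WT PAX6-TBR2- cells. Of the 60 genes, 42 had their highest WT mean in PAX6-TBR2- cells, 10 in TBR2+ cells and 8 in PAX6+ cells.

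**Figure D1:**
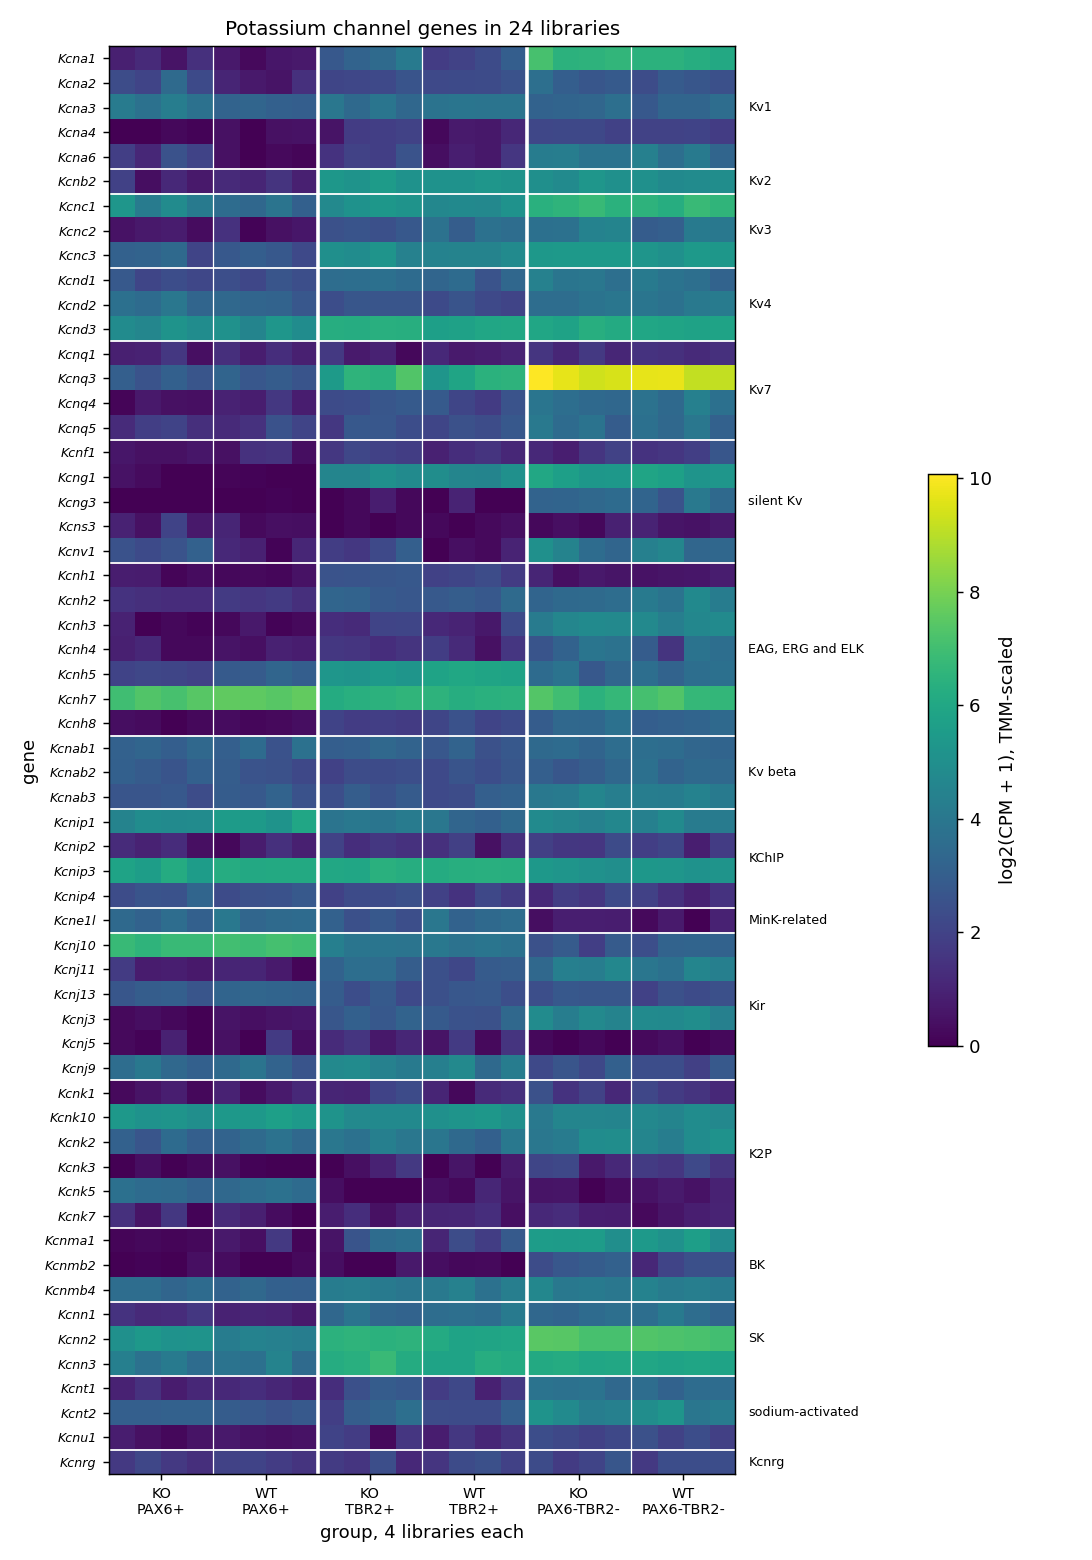
Level of 58 of the 60 potassium channel genes in each of the 24 libraries, as log2(CPM + 1), with genes in rows by subfamily, libraries in columns and KO left of WT within each population; lighter colours are higher. Along its own row the Kv7 gene Kcnq3 is lightest in PAX6-TBR2- cells, and Kcnj10 is lightest in PAX6+ cells, where Kcnh7 has a higher mean CPM.

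Kcnq3, a subunit of the M-current channel that restrains repetitive firing, took 0.763% to 1.07% of all potassium channel CPM in KO and 0.724% to 1.14% in WT PAX6+ libraries. It took 4.64% to 13.7% in KO and 4.27% to 9.31% in WT TBR2+ libraries, and 26.9% to 36.6% in KO and 24.5% to 34.8% in WT PAX6-TBR2- libraries. Per kb of exon, Kv7 genes made up 1.42 ± 0.3703% of the summed level in KO and 1.81 ± 0.517% in WT PAX6+ cells, against 30.6 ± 1.83% in KO and 29.7 ± 1.86% in WT PAX6-TBR2- cells (SD, n = 4 each). The summed inward rectifiers ran the other way, with 23.8 ± 1.13% in KO and 26.4 ± 0.876% in WT PAX6+ cells and 5.43 ± 1.01% in KO and 5.59 ± 0.792% in WT PAX6-TBR2- cells. Most of this sum in WT PAX6+ cells was Kcnj10, at 23.4 of 32.6 CPM per kb, against 1.33 of 15.1 in WT PAX6-TBR2- cells. Of 5 inward rectifier genes tested between these WT populations, 3 were lower and 2 higher in PAX6-TBR2- cells. KChIP genes made up 18.7 ± 1.31% in KO and 23.1 ± 2.05% in WT PAX6+ cells, and 5.24 ± 0.163% in KO and 5.44 ± 0.545% in WT PAX6-TBR2- cells.

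On this per-kb scale the order of the genes changed from one population to the next. In WT PAX6+ cells the highest was Kcnj10 at 23.4 ± 1.36 CPM per kb, then Kcnip3 at 19.4 ± 0.948, Kcnh7 at 12.3 ± 0.722 and Kcnip1 at 7.43 ± 1.78 (SD, n = 4). In WT TBR2+ cells Kcnip3 came first at 21.8 ± 0.925 CPM per kb, followed by Kcnh5 at 14.3 ± 1.04 and Kcnn2 at 8.17 ± 0.791. In WT PAX6-TBR2- cells Kcnq3 was highest at 47.6 ± 10.7 CPM per kb, and Kcnn2 at 19.5 ± 1.75 and Kcna1 at 16.6 ± 2.12 were also among the highest (SD, n = 4 each).

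**Figure D2:**
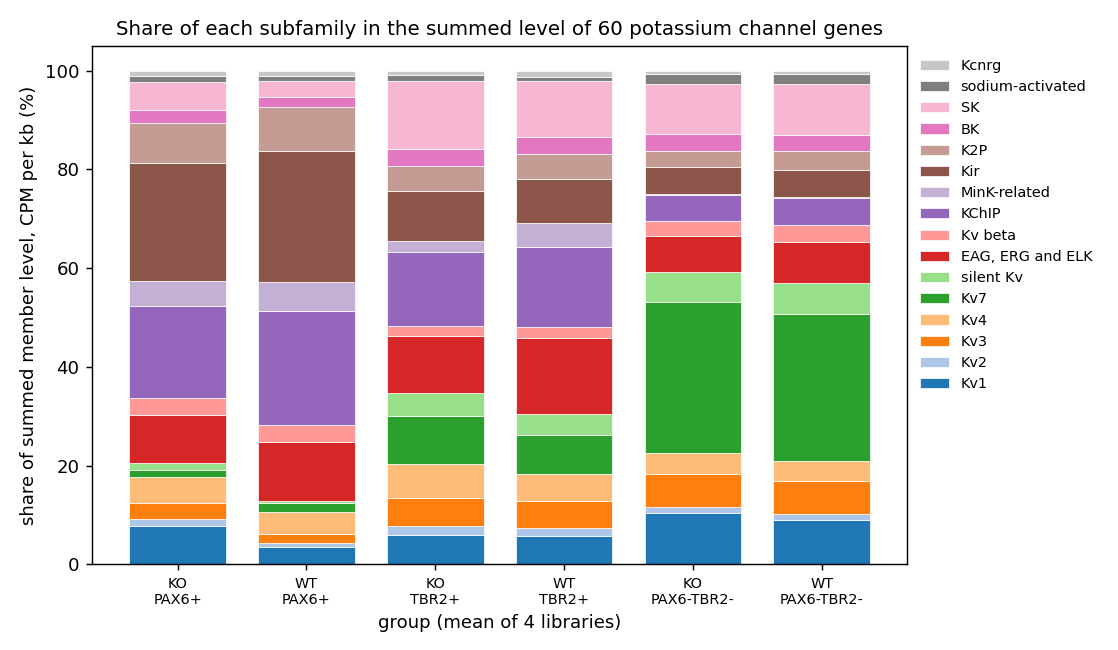
Share of the summed potassium channel level (CPM per kb of exon) taken by each subfamily, as the mean percent over 4 libraries in each of the 6 groups, with KO left of WT. The Kv7 band is thin in PAX6+ cells and takes 30.6% in KO and 29.7% in WT PAX6-TBR2- cells.

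The first question was how the channel genes differ between the 3 populations. In WT, TBR2+ cells compared with PAX6+ cells, 54 potassium channel genes were tested, and 29 were higher and 8 lower at an adjusted p under 0.05. Of all genes tested in that comparison, 29.8% were higher and 30.0% lower (59.8% in either direction). PAX6-TBR2- cells compared with TBR2+ cells gave 34 higher and 8 lower of 56 tested, where 26.1% and 24.2% of all genes were higher and lower (50.4% together). PAX6-TBR2- cells compared with PAX6+ cells gave 42 higher and 10 lower of 57 tested, where 33.0% and 32.4% of all genes were higher and lower (65.5% together). The median log2 fold change of the tested channel genes was 1.00 for TBR2+ over PAX6+, 1.14 for PAX6-TBR2- over TBR2+ and 2.07 for PAX6-TBR2- over PAX6+ cells; the medians of all genes were -0.01, -0.01 and 0.01. Genes near 0 in one population could pass the filter on counts through another, so these counts and medians describe the genes tested and not all 60. The level of the filter was reached in all 4 WT libraries of the first-named population and not of the second by 11, 11 and 22 genes in these 3 comparisons, each of them called higher. It was reached in all 4 of the second and not of the first by 1, 3 and 3 genes, of which 1, 2 and 3 were called lower. At both steps, TBR2+ over PAX6+ and PAX6-TBR2- over TBR2+, 17 genes were higher, and 1, Kcnj10, was lower at both. Another 4 were higher in TBR2+ cells than in either neighbour (Kcnh1, Kcnh5, Kcnj9 and Kcna3), and 4 were lower there than in either, among them Kcnh7, Kcnip1 and Kcnd2. A further 8 were higher at the first step with no call at the second, 2 lower with no call, 9 not called at the first and higher at the second, 3 not called and then lower, and 4 were called at neither; the others were too low to be tested in at least 1 of the 2 comparisons. Log2 fold changes below are from these fits, with their standard error and the p adjusted over all genes tested.

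**Figure D3:**
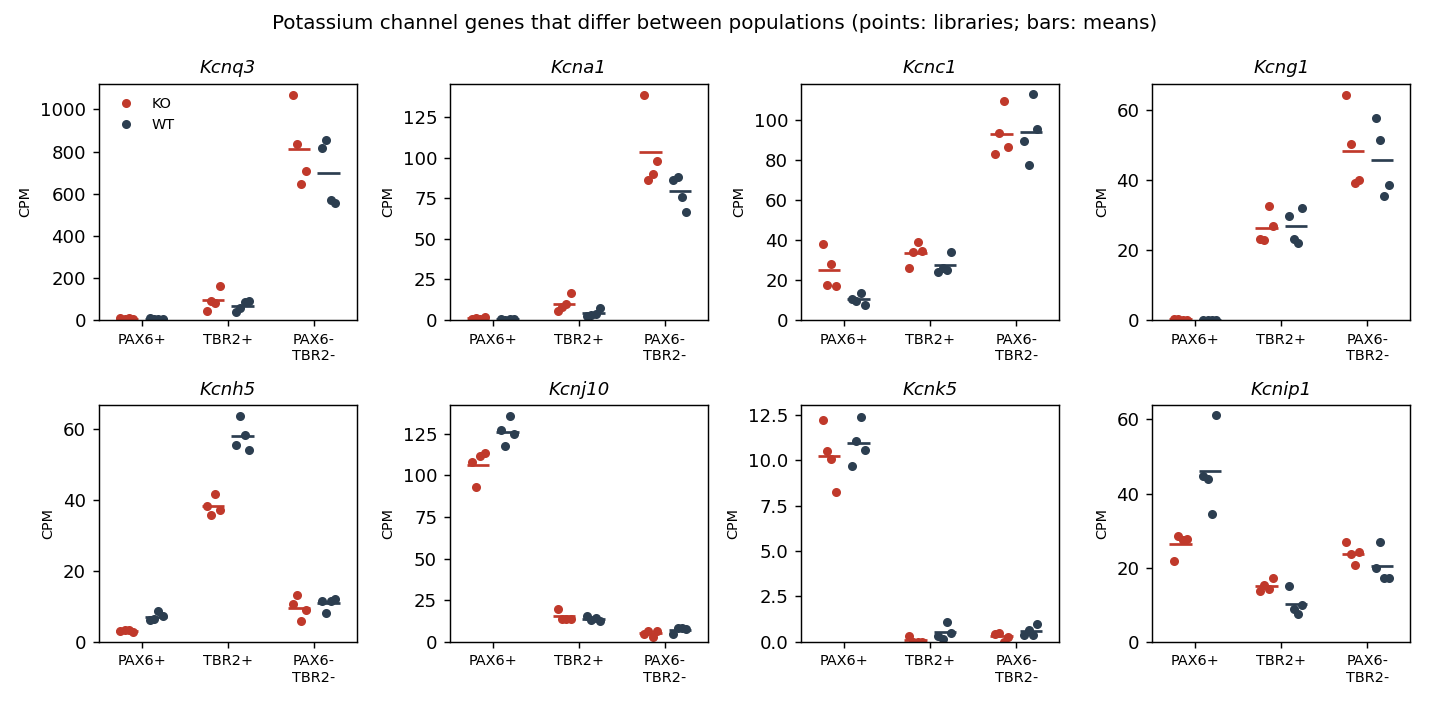
TMM-scaled CPM of 8 potassium channel genes in each of the 24 libraries on linear axes, one panel per gene, with populations in the order PAX6+, TBR2+, PAX6-TBR2- and KO left of WT in each. Points are libraries and bars are means. Kcnq3, Kcna1 and Kcnc1 are highest in PAX6-TBR2- cells, Kcnh5 in TBR2+ cells, and Kcnj10 and Kcnk5 in PAX6+ cells.

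The Kv7 gene Kcnq3 was higher at each step from PAX6+ to TBR2+ to PAX6-TBR2- cells. Kcnq3 had 8.44, 5.67, 6.68 and 5.18 CPM in WT PAX6+ libraries and 37.1, 57.4, 85.6 and 89.2 CPM in WT TBR2+ libraries. Kcnq3 had 819, 853, 571 and 558 CPM in WT PAX6-TBR2- libraries. No 2 of these 3 sets of libraries overlapped. The log2 fold change was 3.41 (SE 0.32, adjusted p = 4.22e-09) for TBR2+ over PAX6+ cells and 3.41 (SE 0.32, adjusted p = 2.21e-08) for PAX6-TBR2- over TBR2+ cells. Kcnq1, the subunit of the cardiac slow delayed rectifier, had 1.31 to 1.801 CPM in WT PAX6-TBR2- and 0.761 to 1.58 CPM in WT PAX6+ cells, with a log2 fold change of 0.50 (SE 0.43, adjusted p = 0.313), not called.

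Kv1 genes encode low-threshold channels of axons and their initial segments. Kcna1, the Kv1.1 subunit, had 0.615, 0.207, 0.514 and 0.622 CPM in WT PAX6+ libraries and 2.42, 2.94, 3.87 and 7.15 CPM in WT TBR2+ libraries. Kcna1 had 86.4, 88.2, 75.7 and 66.4 CPM in WT PAX6-TBR2- libraries, without overlap between any pair of populations. Its log2 fold change was 3.11 (SE 0.47, adjusted p = 6.08e-06) for TBR2+ over PAX6+ and 4.29 (SE 0.29, adjusted p = 2.66e-10) for PAX6-TBR2- over TBR2+ cells. Kcna6 had 0.352, 0, 0.193 and 0.104 CPM in WT PAX6+ libraries and 0.302, 0.817, 0.552 and 1.99 CPM in WT TBR2+ libraries. Kcna6 had 19.8, 11.3, 16.3 and 8.7 CPM in WT PAX6-TBR2- libraries. The WT PAX6+ libraries held 8 Kcna6 counts together, and the log2 fold change was 6.41 (SE 0.50, adjusted p = 1.70e-10) for PAX6-TBR2- over PAX6+ cells. Kcna3, a Kv1 subunit best known in lymphocytes, was instead highest in WT TBR2+ cells, at 13.4 to 14.2 CPM, against 6.94 to 8.85 CPM in WT PAX6+ cells, without overlap. All 4 Kv1 genes tested were higher in TBR2+ than in PAX6+ cells, and 4 of 5 were higher in PAX6-TBR2- than in PAX6+ cells; Kcna1 and Kcna6 were below the level of the filter in all WT PAX6+ libraries. Among the Kv beta genes, cytoplasmic partners of Kv1, none of 3 differed between TBR2+ and PAX6+ cells. All 3 were higher in PAX6-TBR2- than in TBR2+ cells, led by Kcnab3 at 16.04 to 21.3 CPM against 3.62 to 7.98 CPM, a log2 fold change of 1.69 (SE 0.22, adjusted p = 2.66e-06).

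Kcnb2, a delayed rectifier subunit, had 1.32, 1.04, 1.86 and 0.8289 CPM in WT PAX6+ libraries and 33.8, 34.5, 38.1 and 34.9 CPM in WT TBR2+ libraries. Kcnb2 had 32.6, 26.7, 28.2 and 29.8 CPM in WT PAX6-TBR2- libraries. Its TBR2+ libraries were above both other populations, with a log2 fold change of 4.80 (SE 0.30, adjusted p = 6.72e-12) over PAX6+ cells and -0.25 (SE 0.12, adjusted p = 0.0938) for PAX6-TBR2- over TBR2+ cells, which is not called. All 3 Kv3 genes, whose channels allow fast firing, were higher in TBR2+ than in PAX6+ cells. Kcnc1 was at 7.56 to 13.6 CPM in WT PAX6+ and 24.01 to 34.2 CPM in WT TBR2+ libraries. Kcnc1 was at 77.2 to 113 CPM in WT PAX6-TBR2- libraries, with a log2 fold change of 3.23 (SE 0.22, adjusted p = 1.63e-11) for PAX6-TBR2- over PAX6+ cells. Kcnc2, a Kv3 gene of fast-spiking interneurons, was at 0.0692 to 1.67 CPM in WT PAX6+ and 6.87 to 12.7 CPM in WT TBR2+ libraries. Kcnc2 was at 6.603 to 16.9 CPM in WT PAX6-TBR2- libraries, with 4.12 (SE 0.44, adjusted p = 4.43e-08) on the log2 scale for TBR2+ over PAX6+ cells. Kcnc1 and Kcnc2 are known from interneurons, whose markers were summed above, and the part of those cells in the PAX6-TBR2- levels was not tested.

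Kv4 channels carry the fast A-type current, and KChIP proteins bind them in the cytoplasm and set their surface level. Kcnd3 was at 22.3 to 38.2 CPM in WT PAX6+ and 49.8 to 63.8 CPM in WT TBR2+ libraries. Kcnd3 was at 54.5 to 61.03 CPM in WT PAX6-TBR2- libraries. It was higher in TBR2+ than in PAX6+ cells, with a log2 fold change of 0.94 (SE 0.14, adjusted p = 6.08e-06). Kcnd2 was lowest in TBR2+ cells, at 3.16 to 5.07 CPM, against 5.699 to 9.67 CPM in PAX6+ cells, a log2 fold change of -1.01 (SE 0.23, adjusted p = 0.000633). Among the 4 KChIP genes, 3 were lower in PAX6-TBR2- than in PAX6+ cells. Kcnip3, also known as the calcium-binding repressor DREAM, was at 65.6 to 73.5 CPM in WT PAX6+ and 72.6 to 80.1 CPM in WT TBR2+ libraries. Kcnip3 was at 33.6 to 38.8 CPM in WT PAX6-TBR2- libraries. The PAX6-TBR2- libraries stood below both other populations, with -1.06 (SE 0.11, adjusted p = 1.31e-07) on the log2 scale for PAX6-TBR2- over TBR2+ cells. Kcnip1 had 44.7, 43.99, 34.5 and 61.1 CPM in WT PAX6+ libraries and 14.9, 8.83, 7.55 and 9.97 CPM in WT TBR2+ libraries. Kcnip1 had 20.01, 26.9, 17.3 and 17.3 CPM in WT PAX6-TBR2- libraries. Its libraries were highest in PAX6+ cells and lowest in TBR2+ cells without overlap, with a log2 fold change of -2.10 (SE 0.19, adjusted p = 4.07e-09) for TBR2+ over PAX6+ cells. Kcnip4 was at 3.87 to 6.11 CPM in WT PAX6+ and 1.798 to 3.498 CPM in WT TBR2+ libraries. Kcnip4 was at 0.919 to 2.801 CPM in WT PAX6-TBR2- libraries, with -1.41 (SE 0.34, adjusted p = 0.000968) for PAX6-TBR2- over PAX6+ cells.

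Some silent Kv subunit genes were nearly absent from PAX6+ cells and abundant in PAX6-TBR2- cells. Kcng1 had 0.0879, 0.0692, 0 and 0 CPM in WT PAX6+ libraries and 29.7, 23.2, 22.1 and 32.1 CPM in WT TBR2+ libraries. Kcng1 had 57.6, 51.3, 35.6 and 38.4 CPM in WT PAX6-TBR2- libraries. Only 2 Kcng1 counts were found in the 4 WT PAX6+ libraries, against 652 in the WT TBR2+ libraries, a ratio of 688 after scaling with a 95% counting interval of 189.7 to 5694. Kcng3 had 0, 0, 0.0642 and 0 CPM in WT PAX6+ libraries and 0, 0.981, 0 and 0 CPM in WT TBR2+ libraries. Kcng3 had 8.404, 4.98, 15.7 and 9.91 CPM in WT PAX6-TBR2- libraries. Its counts were 462 in WT PAX6-TBR2- and 1 in WT PAX6+ libraries, a ratio of 514 with an interval of 91.8 to 20352, and 6 in WT TBR2+ libraries, all of them in replicate 2. For PAX6-TBR2- over TBR2+ cells the fitted log2 fold change of Kcng3 was 5.24, and 9.25 without that library. Kcnv1, a silencer of Kv2 channels, had 1.23, 0.899, 0.0642 and 1.14 CPM in WT PAX6+ libraries and 0, 0.327, 0.184 and 0.997 CPM in WT TBR2+ libraries. Kcnv1 had 19.8, 23.4, 9.05 and 9.32 CPM in WT PAX6-TBR2- libraries, with a log2 fold change of 5.29 (SE 0.69, adjusted p = 2.23e-06) for PAX6-TBR2- over TBR2+ cells. The 4 silent subunit genes tested were higher in PAX6-TBR2- than in PAX6+ cells, but Kcng1 and Kcng3 passed the filter on counts only through cells in which they were high. Kcns3, the fifth, was too low everywhere for the test, at 1.05 CPM or less in every WT library.

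The EAG, ERG and ELK genes (Kcnh) encode voltage-gated channels related to the cardiac hERG channel. Kcnh5, which encodes Eag2, had 6.15, 6.502, 8.604 and 7.15 CPM in WT PAX6+ libraries and 55.6, 63.6, 58.4 and 54.01 CPM in WT TBR2+ libraries. Kcnh5 had 11.6, 8.14, 11.4 and 12.2 CPM in WT PAX6-TBR2- libraries. TBR2+ libraries were far above both other populations, with a log2 fold change of 3.07 (SE 0.13, adjusted p = 6.13e-15) over PAX6+ cells and -2.38 (SE 0.17, adjusted p = 3.90e-10) for PAX6-TBR2- over TBR2+ cells. Kcnh1, which encodes Eag1, had the same shape at a lower level, 0.128 to 0.414 CPM in WT PAX6+ and 2.33 to 4.05 CPM in WT TBR2+ libraries. Kcnh1 was at 0.4002 to 0.734 CPM in WT PAX6-TBR2- libraries, with 3.80 (SE 0.47, adjusted p = 3.42e-07) for TBR2+ over PAX6+ cells. Kcnh7, the highest of them per kb in WT PAX6+ and PAX6-TBR2- cells, was at 172 to 198 CPM in WT PAX6+ and 76.01 to 89.8 CPM in WT TBR2+ libraries. Kcnh7 was at 101 to 158 CPM in WT PAX6-TBR2- libraries, and was lowest in TBR2+ cells with -1.12 (SE 0.11, adjusted p = 1.40e-08) over PAX6+ cells. Of its exon bases, 696 are shared with the gene Gca. Kcnh3, an ELK channel of forebrain neurons, was at 0.0642 to 0.622 CPM in WT PAX6+ and 0.552 to 3.82 CPM in WT TBR2+ libraries. Kcnh3 was at 18.8 to 26.9 CPM in WT PAX6-TBR2- libraries, with 3.87 (SE 0.34, adjusted p = 8.17e-09) for PAX6-TBR2- over TBR2+ cells. Kcnh8 was at 0.138 to 0.311 CPM in WT PAX6+ and 3.13 to 4.74 CPM in WT TBR2+ libraries. Kcnh8 was at 7.004 to 9.91 CPM in WT PAX6-TBR2- libraries, with 4.07 (SE 0.44, adjusted p = 4.32e-08) for TBR2+ over PAX6+ cells. In all, 6 of 7 of these genes were higher in TBR2+ than in PAX6+ cells and 1 was lower.

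Inward rectifier genes followed several patterns. Kcnj10, the Kir4.1 subunit of glia that clears extracellular potassium, had 127, 117, 135 and 125 CPM in WT PAX6+ libraries and 15.3, 12.9, 13.99 and 12.5 CPM in WT TBR2+ libraries. Kcnj10 had 4.402, 8.14, 8.398 and 7.86 CPM in WT PAX6-TBR2- libraries. The 3 populations did not overlap. Its log2 fold change was -3.16 (SE 0.13, adjusted p = 5.50e-15) for TBR2+ over PAX6+ and -0.88 (SE 0.22, adjusted p = 0.00232) for PAX6-TBR2- over TBR2+ cells. Kcnj9, a subunit of the G-protein-gated GIRK channels, was at 5.18 to 13.6 CPM in WT PAX6+ and 9.94 to 25.3 CPM in WT TBR2+ libraries. Kcnj9 was at 2.76 to 5.98 CPM in WT PAX6-TBR2- libraries, with -2.003 (SE 0.29, adjusted p = 6.65e-06) for PAX6-TBR2- over TBR2+ cells. Kcnj3, another GIRK subunit, was at 0.346 to 0.518 CPM in WT PAX6+ and 4.603 to 9.47 CPM in WT TBR2+ libraries. Kcnj3 was at 19.8 to 29.8 CPM in WT PAX6-TBR2- libraries, with 3.86 (SE 0.37, adjusted p = 8.65e-09) for TBR2+ over PAX6+ cells. It shares 1621 exon bases with Gm26794. Kcnj5, the GIRK subunit best known in the heart, was near the limit of the rule, at 0 to 2.31 CPM in WT PAX6+ and 0.184 to 2.29 CPM in WT TBR2+ libraries. Kcnj5 was at 0 to 0.332 CPM in WT PAX6-TBR2- libraries. Kcnj13, chosen for mention after its values were seen, shares 623 of its 1270 exon bases with Gigyf2, a gene at 165 ± 8.72 CPM in WT PAX6+ cells, so its 7.87 to 8.92 CPM there cannot be assigned to it alone.

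Among two-pore channels, Kcnk5 (TASK-2, an acid-sensitive leak channel) was highest in PAX6+ cells, at 9.67, 11.1, 12.4 and 10.6 CPM in WT PAX6+ libraries, against 0.302, 0.163, 1.105 and 0.499 CPM in WT TBR2+ and 0.4002, 0.664, 0.394 and 0.954 CPM in WT PAX6-TBR2- libraries. The log2 fold change was -4.37 (SE 0.36, adjusted p = 6.56e-10) for TBR2+ over PAX6+ and -3.86 (SE 0.29, adjusted p = 1.18e-10) for PAX6-TBR2- over PAX6+ cells, and the PAX6+ libraries stood above all others. Kcnk10 (TREK-2, a mechanically gated leak channel) was the highest two-pore gene per kb of exon in WT PAX6+ and TBR2+ cells, with 4.93 ± 0.541 and 3.93 ± 0.403 CPM per kb. In WT PAX6-TBR2- cells Kcnk2 (TREK-1) was higher, with 5.27 ± 1.38 against 2.87 ± 0.305 CPM per kb (SD, n = 4 each). Kcnk10 was at 39.8 to 50.2 CPM in WT PAX6+ and 31.4 to 38.8 CPM in WT TBR2+ libraries. Kcnk10 was at 22.3 to 28.7 CPM in WT PAX6-TBR2- libraries, with -0.72 (SE 0.13, adjusted p = 4.24e-05) for PAX6-TBR2- over PAX6+ cells. Kcnk7, near the limit of the rule, had 1.47 CPM or less in every WT library. Kcne1l, a relative of the MinK accessory subunit, was at 9.13 to 15.3 CPM in WT PAX6+ and 8.01 to 15.1 CPM in WT TBR2+ libraries. Kcne1l was at 0 to 0.954 CPM in WT PAX6-TBR2- libraries. It was lower in PAX6-TBR2- than in TBR2+ cells by a log2 fold change of -4.16 (SE 0.41, adjusted p = 4.90e-08), without overlap.

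All 3 SK genes, calcium-activated channels of the after-hyperpolarisation, were higher in TBR2+ than in PAX6+ cells. Kcnn2, the most abundant per kb, had 17.8, 21.03, 19.7 and 18.03 CPM in WT PAX6+ libraries and 69.3, 55.6, 58.5 and 60.7 CPM in WT TBR2+ libraries. Kcnn2 had 160.5, 150.0, 143 and 129 CPM in WT PAX6-TBR2- libraries, without overlap. Its log2 fold change was 1.72 (SE 0.11, adjusted p = 9.96e-12) for TBR2+ over PAX6+ and 1.27 (SE 0.11, adjusted p = 1.03e-08) for PAX6-TBR2- over TBR2+ cells. It shares 284 exon bases with A330093E20Rik. Among BK genes, the beta subunit Kcnmb4 was at 7.36 to 9.48 CPM in WT PAX6+ and 12.3 to 20.3 CPM in WT TBR2+ libraries. Kcnmb4 was at 16.6 to 21.01 CPM in WT PAX6-TBR2- libraries, with 1.10 (SE 0.17, adjusted p = 6.50e-06) for TBR2+ over PAX6+ cells. It shares 693 exon bases with Kcnmb4os2. Kcnmb2, which inactivates BK channels, was at 0 to 0.264 CPM in WT PAX6+ and 0 to 0.302 CPM in WT TBR2+ libraries. Kcnmb2 was at 1.201 to 4.52 CPM in WT PAX6-TBR2- libraries, with 4.29 (SE 0.63, adjusted p = 8.84e-06) for PAX6-TBR2- over TBR2+ cells. Of the sodium-activated group, which here includes the sperm channel gene Kcnu1, 3 of 3 genes were higher in PAX6-TBR2- than in TBR2+ cells. Kcnt2 was at 5.01 to 6.68 CPM in WT PAX6+ and 3.87 to 7.15 CPM in WT TBR2+ libraries. Kcnt2 was at 14.4 to 36.5 CPM in WT PAX6-TBR2- libraries, with 2.35 (SE 0.37, adjusted p = 2.19e-05) for that comparison. Kcnrg, a soluble regulator of Kv channel assembly, was at 1.86 to 3.11 CPM in WT PAX6+ and 1.96 to 4.42 CPM in WT TBR2+ libraries. Kcnrg was at 2.201 to 4.199 CPM in WT PAX6-TBR2- libraries, and no comparison of WT populations called it.

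The WT and KO contrasts between populations compare different libraries but come from the same fit on 16 libraries. Filter, scaling, spread and library batch are shared, so they are not separate tests. The same population differences between KO libraries gave 31 higher and 8 lower of 54 for TBR2+ over PAX6+ cells, where 29.4% and 29.5% of all genes were higher and lower (58.9% together). They gave 29 higher and 7 lower of 56 for PAX6-TBR2- over TBR2+ cells, against 24.9% and 24.1% (48.9% together). They gave 39 higher and 8 lower of 57 for PAX6-TBR2- over PAX6+ cells, against 32.4% and 32.2% (64.6% together). Channel genes called in both genotypes in the same direction numbered 31, 34 and 45 in these 3 comparisons. For TBR2+ over PAX6+ cells these are 79.5% of the KO calls and 83.8% of the WT calls, for PAX6-TBR2- over TBR2+ cells 94.4% and 81.0%, and for PAX6-TBR2- over PAX6+ cells 95.7% and 86.5%. Over all genes these shares were 86.9% of the KO calls and 85.6% of the WT calls, 84.5% and 82.1%, and 89.3% and 88.2% in the same 3 comparisons. No channel gene was called in opposite directions in KO and WT. Kcnj10 had 108, 92.8, 112 and 113 CPM in KO PAX6+, 19.5, 13.96, 13.9 and 13.5 CPM in KO TBR2+ and 4.67, 6.41, 2.69 and 6.51 CPM in KO PAX6-TBR2- libraries, the same order as in WT. Kcnq3 had 7.29, 4.95, 7.58 and 5.37 CPM in KO PAX6+, 43.6, 92.5, 82.4 and 161 CPM in KO TBR2+ and 1069.5, 835, 646 and 706 CPM in KO PAX6-TBR2- libraries, also without overlap. For TBR2+ over PAX6+ cells Kcna2, Kcna3, Kcna6, Kcnc1, Kcnip4 and Kcnj13 were called in WT only.

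The second question was which channel genes differ between KO and WT in each population. In PAX6+ cells 39 of the 60 genes had enough counts to be tested, and 6 were higher and 2 lower in KO than in WT. That is 20.5% of those tested, against 3.64% of all genes; 2.45% of all genes were higher and 1.19% lower. The median log2 fold change of the 39 was -0.05, against 0.00 for all genes. Of the 39, 4 reached the level of the filter in all KO libraries and not in all WT libraries, among them Kcna2, Kcna6 and Kcnv1, which are 3 of the 6 higher genes, and none did so in WT and not in KO. The split of 6 to 2 and the share are therefore a description of the genes that passed. Without the filter 7 of 60 were called higher and 3 lower, and of all 26017 genes 430 higher and 278 lower. Higher were 3 Kv1 genes, the silent subunit Kcnv1, the Kv3 gene Kcnc1 and the SK gene Kcnn2, and lower were the Eag2 gene Kcnh5 and the KChIP gene Kcnip1. The 21 untested genes averaged 1.25 CPM or less in both genotypes. All 8 remained called when any 1 of the 8 libraries was left out. For each of them the KO and WT libraries did not overlap. A call on the same libraries makes this likely, so it is no separate support, and its share over all genes was not counted.

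**Figure D4:**
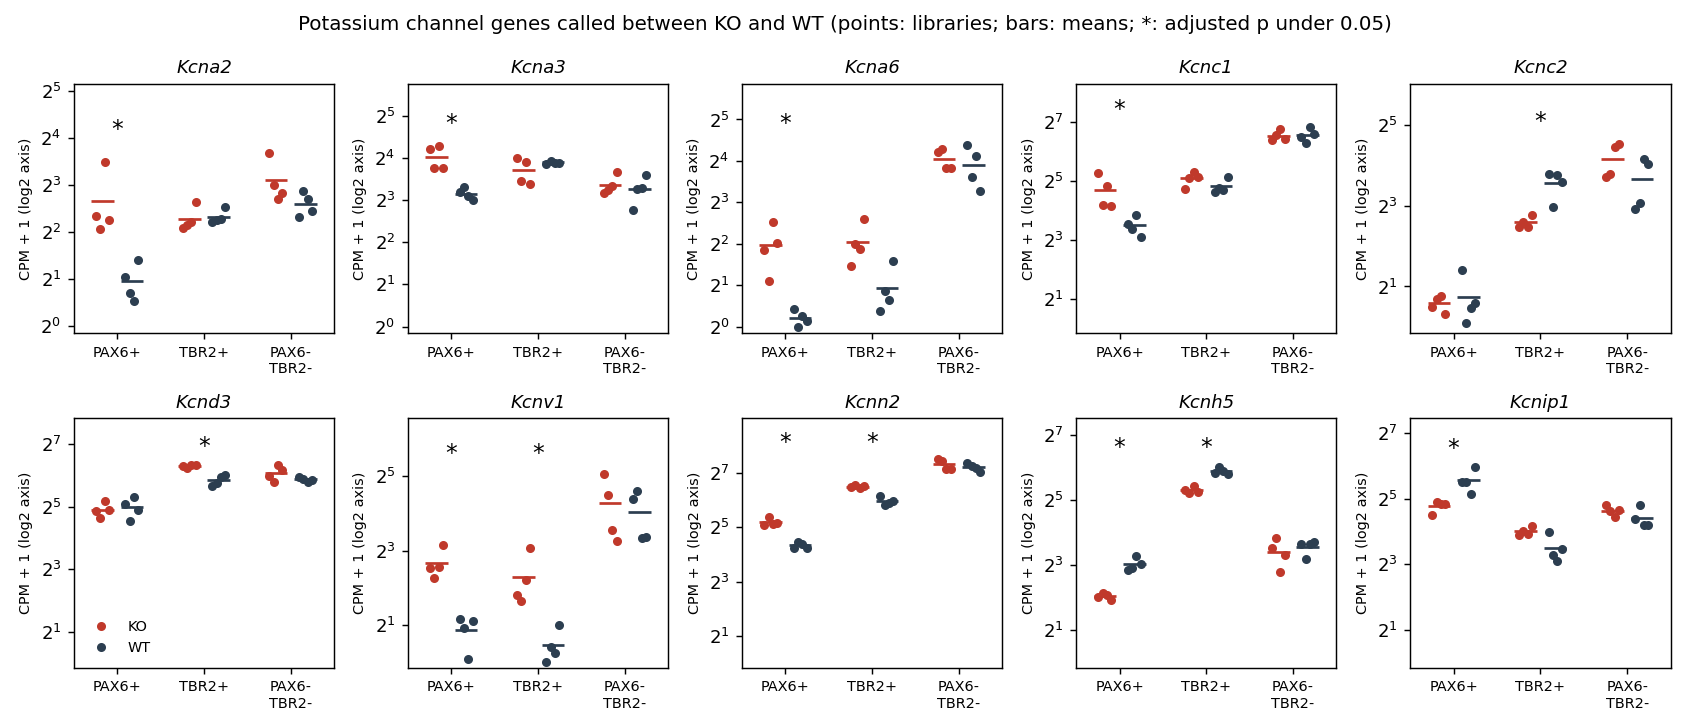
TMM-scaled CPM plus 1, on a log2 axis, of the 10 potassium channel genes called between KO and WT in PAX6+ or TBR2+ cells, one panel per gene, with KO left of WT in each population. Points are the 4 libraries of a group, bars are means, and an asterisk marks a called difference. Kcna6, Kcna2 and Kcnv1 are higher in KO PAX6+ cells and Kcnh5 is lower.

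Of the 5 Kv1 genes, 3 could be tested in PAX6+ cells, and each was higher in KO. Kcna6 (ENSMUSG00000038077, chr6:126708329-126740674, minus strand) had 2.604, 1.16, 4.76 and 3.07 CPM in KO, against 0.352, 0, 0.193 and 0.104 CPM in WT, or 130 counts against 8. Every KO library was above every WT library, with a log2 fold change of 4.13 (SE 0.63, adjusted p = 0.000753), and 3.70 to 4.74 when 1 library was left out. Kcna6 passed the filter on counts through its KO libraries, as Kcna2 did. Kcna2 (ENSMUSG00000040724, chr3:107101146-107115005, plus strand), the Kv1.2 subunit, had 4.06, 3.17, 10.2 and 3.75 CPM in KO, against 1.05, 0.622, 0.449 and 1.66 CPM in WT. KO replicate 3 stood apart from the other 3 KO libraries. The log2 fold change was 2.56 (SE 0.46, adjusted p = 0.00292) with it and 2.02 (adjusted p = 0.0115) without it, when the other KO libraries averaged 3.66 ± 0.453 CPM (SD, n = 3). Kcna3 (ENSMUSG00000047959, chr3:107036169-107038070, plus strand) had 17.4, 12.6, 18.3 and 12.5 CPM in KO, against 8.18, 8.85, 7.58 and 6.94 CPM in WT, a log2 fold change of 0.96 (SE 0.18, adjusted p = 0.00431). In WT these 3 genes were higher in TBR2+ than in PAX6+ cells, and in KO none of the 3 was called between these populations; these comparisons share the PAX6+ libraries. Kcna1 and Kcna4, too low for the test, averaged 1.05 ± 0.5199 CPM and 0.0653 ± 0.0841 CPM in KO and 0.4895 ± 0.194 CPM and 0.288 ± 0.194 CPM in WT PAX6+ cells (SD, n = 4 each).

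The promoter windows of these 3 Kv1 genes and of Kcnh5 are shown, the first as the Kv1 genes called higher in KO PAX6+ cells and the second as the gene lower in KO in both PAX6+ and TBR2+ cells. Each runs from 250 bases before to 50 bases after the start of transcription on mouse build GRCm38.p6 and is written 5′ to 3′ on the gene's strand. They lie at chr3:107101317-107101616, plus strand for Kcna2, chr3:107035912-107036211, plus strand for Kcna3, chr6:126740625-126740924, minus strand for Kcna6 and chr12:75177283-75177582, minus strand for Kcnh5. Capitals mark the GC box GGGCGG, a binding sequence of Sp1 proteins, and the E-boxes CAGCTG and CAGATG, which proneural proteins bind, on either strand, with no overlap between matches.
Kcna2: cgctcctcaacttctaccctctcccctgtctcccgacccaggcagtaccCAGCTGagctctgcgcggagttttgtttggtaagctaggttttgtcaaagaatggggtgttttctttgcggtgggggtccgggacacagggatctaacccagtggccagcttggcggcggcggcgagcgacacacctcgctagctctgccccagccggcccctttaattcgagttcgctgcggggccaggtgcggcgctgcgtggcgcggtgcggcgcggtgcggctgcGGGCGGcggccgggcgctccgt
Kcna3: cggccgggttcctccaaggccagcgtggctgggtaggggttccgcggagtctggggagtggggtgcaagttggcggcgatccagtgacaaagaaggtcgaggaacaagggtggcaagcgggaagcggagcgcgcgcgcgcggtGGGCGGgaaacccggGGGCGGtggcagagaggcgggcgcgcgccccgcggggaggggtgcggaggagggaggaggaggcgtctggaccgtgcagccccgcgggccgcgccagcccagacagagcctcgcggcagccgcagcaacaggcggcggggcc
Kcna6: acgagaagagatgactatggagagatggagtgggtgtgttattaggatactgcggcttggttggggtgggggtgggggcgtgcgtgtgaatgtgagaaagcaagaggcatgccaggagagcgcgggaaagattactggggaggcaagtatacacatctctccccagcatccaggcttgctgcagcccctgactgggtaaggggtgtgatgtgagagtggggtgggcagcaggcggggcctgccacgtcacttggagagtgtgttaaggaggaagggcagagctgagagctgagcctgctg
Kcnh5: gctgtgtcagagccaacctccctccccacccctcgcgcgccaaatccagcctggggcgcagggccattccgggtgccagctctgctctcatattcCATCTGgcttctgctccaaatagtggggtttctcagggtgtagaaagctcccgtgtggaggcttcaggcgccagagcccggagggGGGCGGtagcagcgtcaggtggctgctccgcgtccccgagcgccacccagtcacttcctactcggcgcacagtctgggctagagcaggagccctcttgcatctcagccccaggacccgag
Kcna2 has 1 GC box and 1 CAGCTG, Kcna3 has 2 GC boxes, Kcna6 has no match, and Kcnh5 has 1 GC box and 1 CAGATG, read on the other strand as CATCTG. The windows are 66.7% (Kcna2), 75% (Kcna3), 58.3% (Kcna6) and 65.3% (Kcnh5) G and C, with 31, 37, 8 and 17 CG dinucleotides. Of the 60 genes, 42 matched RefSeq by symbol, with 61 windows. GGGCGG was in 52.5% of these and in 35.7% of all 32851 windows, CAGCTG in 24.6% and 16.3%, and CAGATG in 14.8% and 17.2%. The median share of G and C was 61.0% in the windows of the channel genes and 52.7% in all windows, and its part in these shares was not tested. A match describes the letters of a window and not the binding of a protein.

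Kcnv1 (ENSMUSG00000022342, chr15:45106284-45114920, minus strand) had 4.79, 3.79, 4.93 and 7.84 CPM in KO PAX6+ libraries, against 1.23, 0.899, 0.0642 and 1.14 CPM in WT, a log2 fold change of 2.75 (SE 0.47, adjusted p = 0.00225). It reached the level of the filter in all KO and in 3 of 4 WT libraries. The KO level lay below the 8.63 to 32.5 CPM in KO and 9.05 to 23.4 CPM in WT PAX6-TBR2- libraries. Kcnc1 (ENSMUSG00000058975, chr7:46396497-46438704, plus strand) had 38.2, 17.3, 27.8 and 16.9 CPM in KO, against 10.7, 9.41, 13.6 and 7.56 CPM in WT, a log2 fold change of 1.28 (SE 0.24, adjusted p = 0.00472). The KO PAX6+ libraries overlapped with the range of TBR2+ cells, 26.01 to 38.9 CPM in KO and 24.01 to 34.2 CPM in WT. Kcnn2 (ENSMUSG00000054477) had 32.5, 40.5, 34.01 and 34.8 CPM in KO, against 17.8, 21.03, 19.7 and 18.03 CPM in WT, a log2 fold change of 0.91 (SE 0.13, adjusted p = 0.000374) and the smallest adjusted p of the 8. The summed neuron markers gave 352 to 369.6 CPM in KO and 336 to 411 CPM in WT PAX6+ cells, most of it Map2 with means of 298 CPM in KO and 284 CPM in WT. Of the 8 neuron markers, 3 had a higher mean in KO and 5 a lower one; Syt1 averaged 6.48 CPM in KO and 2.52 CPM in WT, and Dcx 28.4 CPM in KO and 57.9 CPM in WT. Their part in the results on the 6 higher genes was not tested.

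Kcnh5 (ENSMUSG00000034402, chr12:74897220-75177332, minus strand) had 3.02, 3.4, 3.26 and 2.81 CPM in KO PAX6+ libraries, against 6.15, 6.502, 8.604 and 7.15 CPM in WT. The KO libraries were all below the WT libraries, with a log2 fold change of -1.16 (SE 0.22, adjusted p = 0.00400). Kcnip1 (ENSMUSG00000053519, chr11:33629339-33993152, minus strand) had 21.8, 28.7, 27.5 and 27.8 CPM in KO, against 44.7, 43.99, 34.5 and 61.1 CPM in WT, a log2 fold change of -0.78 (SE 0.16, adjusted p = 0.00971). In WT the 2 genes had different patterns, with Kcnh5 highest in TBR2+ and Kcnip1 in PAX6+ cells. Summed intermediate progenitor markers were at 321 to 426 CPM in KO and 358 to 521 CPM in WT PAX6+ cells and Cajal-Retzius markers at 14.8 to 91.9 CPM in KO and 30.9 to 289 CPM in WT. Of the 6 intermediate progenitor markers, 5 had a lower mean in KO and 1 a higher one, and all 5 Cajal-Retzius markers had a lower mean. Their part in the Kcnh5 and Kcnip1 results was not tested. Kcnj10, the highest gene per kb in WT PAX6+ cells, had 108, 92.8, 112 and 113 CPM in KO, against 127, 117, 135 and 125 CPM in WT. These ranges do not overlap, and its log2 fold change was -0.23 (SE 0.10, adjusted p = 0.335), not called, and -0.23 (adjusted p = 0.0488) with the replicate number as a block. Kcnh7 had 126, 160.1, 140.1 and 175 CPM in KO, against 192, 189.6, 172 and 198 CPM in WT, with -0.30 (SE 0.11, adjusted p = 0.226) and, with the block, -0.31 (adjusted p = 0.0170).

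**Figure D5:**
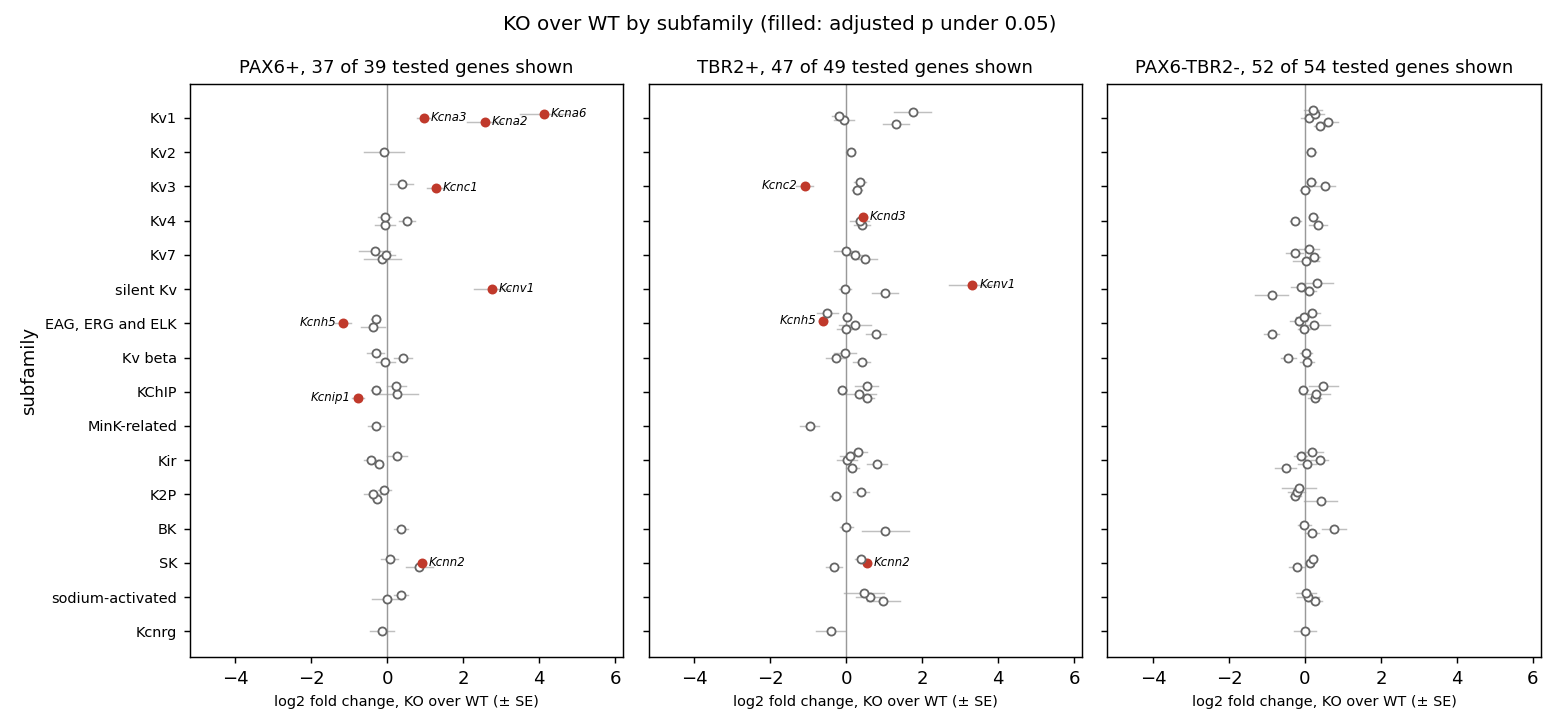
Log2 fold change of KO over WT for tested potassium channel genes, grouped by subfamily, in PAX6+, TBR2+ and PAX6-TBR2- cells, with bars for the standard error and filled points for called genes. In PAX6+ cells 3 Kv1 genes are filled above 0, in TBR2+ cells 5 genes are filled, and in PAX6-TBR2- cells none is.

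In TBR2+ cells 49 genes were tested, and 3 were higher and 2 lower in KO, which is 10.2%, against 1.76% of all genes (1.10% higher and 0.662% lower). The median log2 fold change of the 49 was 0.31, against 0.00 for all genes, and 35 of the 49 were above 0. The share of all genes above 0 was not counted, and sodium and calcium channel genes had a similar median, given below. Of the 49, 3 reached the level of the filter in all KO and not in all WT libraries, and 1 in all WT and not in all KO libraries. Higher were Kcnv1, Kcnn2 and Kcnd3, and lower were Kcnh5 and the Kv3 gene Kcnc2. Kcnv1, Kcnn2 and Kcnh5 were also called in PAX6+ cells, in the same direction. Those are other libraries, but whether they came from the same embryos is not stated. The share of all genes called in both populations was not counted. Kcnv1 had 2.51, 2.14, 3.61 and 7.37 CPM in KO, against 0, 0.327, 0.184 and 0.997 CPM in WT, a log2 fold change of 3.32 (SE 0.63, adjusted p = 0.0121). Without WT replicate 3 its adjusted p was 0.0551, and it passed the filter on counts through its KO libraries. Kcnn2 had 87.5, 92.1, 84.7 and 90.5 CPM in KO, against 69.3, 55.6, 58.5 and 60.7 CPM in WT, a log2 fold change of 0.54 (SE 0.10, adjusted p = 0.0113). Kcnh5 had 38.1, 35.8, 41.6 and 37.2 CPM in KO, against 55.6, 63.6, 58.4 and 54.01 CPM in WT, a log2 fold change of -0.60 (SE 0.10, adjusted p = 0.00736). In each of these 3 the KO and WT libraries did not overlap, which is no support beside the call. The number called was 9 without KO replicate 1, 3 without KO replicate 2, KO replicate 3 or WT replicate 1, and 2 without WT replicate 3. Over all genes 278 were higher and 142 lower without KO replicate 1, and 74 and 47 without WT replicate 3. The 11 untested genes averaged 2.33 CPM or less in both genotypes.

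Kcnd3 (ENSMUSG00000040896, chr3:105452330-105674002, plus strand) had 76.9, 73.6, 79.5 and 79.4 CPM in KO TBR2+ libraries, against 49.8, 52.8, 60.8 and 63.8 CPM in WT, a log2 fold change of 0.45 (SE 0.10, adjusted p = 0.0369). Kcnc2 (ENSMUSG00000035681, chr10:112271121-112467024, plus strand) had 4.58, 5.09, 4.56 and 5.804 CPM in KO, against 12.7, 6.87, 12.5 and 10.97 CPM in WT, a log2 fold change of -1.09 (SE 0.23, adjusted p = 0.0247). Neither pair of groups overlapped, which again is no support beside the call. With 1 library left out the log2 fold change of Kcnd3 stayed at 0.40 to 0.50, and the call was lost without WT replicate 1, 2 or 3 or KO replicate 2, 3 or 4, with an adjusted p of up to 0.134. That of Kcnc2 stayed at -1.27 to -0.99, and the call was lost without WT replicate 1 or 3 or KO replicate 2 or 3, with an adjusted p of up to 0.0974. With all 24 libraries in one fit the adjusted p was 0.110 for Kcnd3 and 0.159 for Kcnc2. Kv1 genes that were higher in KO PAX6+ cells were not called in TBR2+ cells by the main fit. Kcna2 was at 3.25 to 5.18 CPM in KO and 3.62 to 4.82 CPM in WT, with -0.05 (SE 0.26, adjusted p = 0.971). Kcna3 was at 9.41 to 14.9 CPM in KO and 13.4 to 14.2 CPM in WT, with -0.20 (SE 0.18, adjusted p = 0.760). Kcna6 had 1.77, 2.96, 2.66 and 5.02 CPM in KO, against 0.302, 0.817, 0.552 and 1.99 CPM in WT, with 1.75 (SE 0.49, adjusted p = 0.101). Kcna6 was called higher without the filter (adjusted p = 0.00583) and with the replicate number as a block (0.00524). It was also called without WT replicate 4 (0.0283) or KO replicate 1 (0.0383). Kcna1 had 5.76, 8.21, 10.1 and 16.5 CPM in KO, against 2.42, 2.94, 3.87 and 7.15 CPM in WT, with 1.31 (SE 0.35, adjusted p = 0.0876). Kcna1 was called by DESeq2 (adjusted p = 0.0182), with all 24 libraries in one fit (0.0260), without the filter (5.92e-05) and with the replicate number as a block (0.000421), at log2 fold changes of 1.31 to 1.32. Kcne1l, at 4.39 to 7.83 CPM in KO and 8.01 to 15.1 CPM in WT, was not called by the main fit either. It was called lower by DESeq2 (adjusted p = 0.0298), without the filter (0.00351) and with the block (0.00411), each at a log2 fold change of -0.96. Summed neuron markers in these TBR2+ libraries were at 4492 to 6094 CPM in KO and 4909 to 5943 CPM in WT, most of it Dcx, Neurod6 and Map2. Of the 8 markers, 5 had a higher mean in KO and 3 a lower one. Syt1 was at 16 CPM in KO and 7.25 CPM in WT, and Stmn2 at 51.3 CPM in KO and 24.3 CPM in WT. Lower were Tubb3 at 311 CPM in KO and 423 CPM in WT, Dcx at 2345 and 2411 CPM, and Neurod6 at 1093 and 1129 CPM. Cajal-Retzius markers were at 343 to 508 CPM in KO and 103 to 501 CPM in WT, and 4 of 5 had a higher mean in KO and 1 a lower one. Intermediate progenitor markers were at 1791 to 2399.5 CPM in KO and 2126 to 2507 CPM in WT. Of these 6 markers, 1 had a higher mean in KO and 5 a lower one. The part of these marker lists in the results was not tested.

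In PAX6-TBR2- cells none of the 54 genes tested was called, where 1 of 12928 genes was (0.00774%), by edgeR. At an unadjusted p under 0.05 there were 6, and the share of all genes at that limit was not counted. DESeq2 called 1 channel gene and, of all 12928 genes, 9 higher and 16 lower. Calls by limma-voom were 0 channel genes and 1 of all genes. The median log2 fold change of the 54 was 0.09. The channel gene called by DESeq2 was Kcnh2, chosen for mention for that reason, which encodes the hERG channel ERG1. It had 8.43, 9.94, 10.3 and 11.01 CPM in KO, against 16.2, 13.3, 26.1 and 17.5 CPM in WT, without overlap. Its log2 fold change was -0.87 (SE 0.20, adjusted p = 0.306), with an adjusted p of 0.0367 by DESeq2 and 0.00719 with the replicate number as a block. The genes called in PAX6+ or TBR2+ cells were not called here, and 4 of them are given with their values. Kcnn2 averaged 158 ± 21.2 CPM in KO and 146 ± 13.1 CPM in WT, with 0.13 (SE 0.12, adjusted p = 0.874). Kcnc1 averaged 92.9 ± 11.7 CPM in KO and 93.8 ± 14.8 CPM in WT, with -0.00 (SE 0.12, adjusted p = 0.999). Kcna6 averaged 15.6 ± 2.73 CPM in KO and 14.02 ± 4.98 CPM in WT, with 0.21 (SE 0.24, adjusted p = 0.896). Kcnh5 averaged 9.64 ± 3.12 CPM in KO and 10.8 ± 1.82 CPM in WT, with -0.17 (SE 0.23, adjusted p = 0.916) (SD, n = 4 each). The PAX6-TBR2- libraries also held the interneuron markers given above, and the Emx1 locus is not active in the ventral progenitors from which interneurons come; their part in these values was not tested.

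The differences between genotype effects were then tested themselves. Between TBR2+ and PAX6+ cells 1 of 54 channel genes was called higher and 2 lower, against 0.213% and 0.399% of all genes (0.612% together). Kcna2 had an effect of KO that was smaller in TBR2+ than in PAX6+ cells, by a log2 difference of -2.60 (SE 0.55, adjusted p = 0.0245), as had Kcna3, -1.15 (SE 0.25, adjusted p = 0.0333). For Kcnip1 the difference was 1.32 (SE 0.27, adjusted p = 0.0165), with KO at 13.7 to 17.1 CPM and WT at 7.55 to 14.9 CPM in TBR2+ cells, overlapping and with the KO mean above the WT mean. Between PAX6-TBR2- and PAX6+ cells 1 of 57 was called higher and 3 lower, against 0.199% and 0.576% of all genes (0.775% together). These were Kcna6 with -3.91 (SE 0.67, adjusted p = 0.00341) and Kcnc1 with -1.27 (SE 0.29, adjusted p = 0.0396). Kcnn2 had -0.77 (SE 0.17, adjusted p = 0.0244) and Kcnip1 had 1.04 (SE 0.24, adjusted p = 0.0457). Between PAX6-TBR2- and TBR2+ cells edgeR called 0 of 56, where 0.0219% of all genes were called higher and 0.0291% lower (0.0510% together). Of the 56, 11 were at an unadjusted p under 0.05, and the share of all genes at that limit was not counted. DESeq2 called 1 of the 56 and limma-voom called 0. For all other channel genes called in one population and not in another, the difference between populations was not called where it was tested.

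Leaving out each of the 16 libraries in turn left 2 of these 7 differences called every time, that of Kcnip1 between TBR2+ and PAX6+ cells and that of Kcna6 between PAX6-TBR2- and PAX6+ cells, and limma-voom gave the Kcna6 difference an adjusted p of 0.0608. Kcna2 lost its call without any 1 of 5 libraries, WT PAX6+ replicate 2, WT PAX6+ replicate 3, WT TBR2+ replicate 4, KO TBR2+ replicate 2 and KO TBR2+ replicate 3 (adjusted p 0.0502 to 0.0671), while its log2 difference stayed at -2.98 to -2.06. Kcna3 lost it without any 1 of 11 libraries (adjusted p 0.0502 to 0.0892), all but WT PAX6+ replicate 2, KO PAX6+ replicates 2 and 4 and KO TBR2+ replicates 1 and 3, and the difference stayed at -1.29 to -1.04. Kcnn2 lost it without any 1 of 6, WT PAX6+ replicate 1, WT PAX6+ replicate 4, WT PAX6-TBR2- replicate 1, KO PAX6+ replicate 2, KO PAX6-TBR2- replicate 3 and KO PAX6-TBR2- replicate 4 (adjusted p 0.0580 to 0.0746), at -0.85 to -0.71. Kcnc1 lost it without any 1 of 11 (adjusted p 0.0611 to 0.0909), all but WT PAX6+ replicate 3, WT PAX6-TBR2- replicate 2, KO PAX6+ replicates 2 and 4 and KO PAX6-TBR2- replicate 3, at -1.43 to -1.01. Kcnip1, in the comparison of PAX6-TBR2- with PAX6+ cells, lost it without any 1 of 14 (adjusted p 0.0516 to 0.130), all but WT PAX6+ replicate 3 and WT PAX6-TBR2- replicate 2, at 0.87 to 1.19.

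Proteins that assemble with potassium channels, and HCN channels, formed a list of 30 other genes. In PAX6+ cells 0 of 21 tested were higher and 1 lower in KO. In TBR2+ cells 1 of 23 was higher and 0 lower, and in PAX6-TBR2- cells 0 of 25 were called; the shares of all genes called are those given above. The gene lower in PAX6+ cells was Cntnap2, an axonal protein that clusters Kv1 channels, at 3.69 ± 1.13 CPM in KO and 10.95 ± 3.45 CPM in WT (SD, n = 4 each). That is a log2 fold change of -1.53 (SE 0.27, adjusted p = 0.00305). Its direction was opposite to that of the 3 Kv1 genes in the same libraries. Its genotype effect differed in TBR2+ cells by 2.22 (adjusted p = 0.00149) and in PAX6-TBR2- cells by 1.92 (adjusted p = 0.0140) on the log2 scale. The gene higher in TBR2+ cells was Abcc8, the sulfonylurea receptor that joins Kir6 subunits in ATP-sensitive channels, at 72.6 ± 8.28 CPM in KO and 28.4 ± 10.1 CPM in WT. The log2 fold change was 1.36 (SE 0.19, adjusted p = 0.00174). Kcnj11, the Kir6.2 pore subunit of that channel, named here for its pairing with Abcc8 after its values were seen, was at 6.903 to 11.3 CPM in KO and 3.43 to 6.81 CPM in WT TBR2+ libraries, with 0.82 (SE 0.26, adjusted p = 0.168). Across WT populations 17 of 25 of these partner genes were higher and 2 lower in TBR2+ than in PAX6+ cells, where 29.8% and 30.0% of all genes were. In PAX6-TBR2- over TBR2+ cells 15 of 25 were higher and 0 lower, against 26.1% and 24.2%, and in PAX6-TBR2- over PAX6+ cells 19 of 26 were higher and 2 lower, against 33.0% and 32.4%.

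Sodium and calcium channel genes, 40 in all, were taken as the other voltage-gated families. Between genotypes 1 of 26 was called in PAX6+ cells, 1 of 29 in TBR2+ cells and 0 of 29 in PAX6-TBR2- cells, where 3.64%, 1.76% and 0.00774% of all genes were. These were the calcium channel subunit gene Cacna2d1, with a log2 fold change of 0.83 (SE 0.20, adjusted p = 0.0303) in PAX6+ cells, and the sodium channel gene Scn8a, with 0.39 (SE 0.09, adjusted p = 0.0472) in TBR2+ cells. The median log2 fold change of the 29 tested in TBR2+ cells was 0.28, with 23 of the 29 above 0. Across WT populations 24 of 31 were higher and 3 lower in TBR2+ than in PAX6+ cells, 24 of 31 higher and 4 lower in PAX6-TBR2- than in TBR2+ cells, and 25 of 33 higher and 4 lower in PAX6-TBR2- than in PAX6+ cells. Of all genes, 29.8%, 26.1% and 33.0% were higher and 30.0%, 24.2% and 32.4% lower in these 3 comparisons. The potassium channel genes were likewise more often higher than lower in these comparisons, with 29 of 54, 34 of 56 and 42 of 57 higher.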

How the data were processed

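Sorted cells were extracted from fixed material (RecoverAll), amplified (Ovation RNA-seq V2) and made into libraries without molecular identifiers (Ovation Ultralow V2), per the labels' protocols, so a count is not an independent molecule and intervals cover counting error only. FastQC, STAR, cutadapt, featureCounts and DESeq2 appear by name, with build mm10, in the submitters' processing notes. Strand setting, annotation release and treatment of multi-mapping reads are not given there. The authors deposited raw counts per gene and, as a second unit, signal tables of counts divided by size factors. Lanes of the raw counts were summed per library. Of the values in the deposited signal tables, 100% were whole reads once rescaled, within 1e-06. Those reads equalled the raw counts in PAX6+ cells. In the other populations their group totals came to 1.44 to 1.70 times the raw group totals. This includes 1 WT PAX6-TBR2- column that equalled a raw library. The recovered reads were used as an alternative only.

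Levels are CPM with TMM scaling over 24 libraries, or per kb of union exon length from GENCODE M21 (GRCm38, the same assembly as mm10), to which 37693 of 39017 listed genes matched. Differences were tested with edgeR 4.0.16 (filterByExpr, TMM, quasi-likelihood F test, two-sided, R 4.3.3) on 8 libraries for KO over WT and on 16 libraries in 4 groups between populations and between genotype effects. P-values were adjusted by Benjamini-Hochberg over all genes tested, and called means an adjusted p under 0.05. The scripts were tested on simulated data first. Alternatives were DESeq2 1.42.0, limma-voom 3.58.1 and those named in the closing section. Figures were drawn with Python 3.11.15 and matplotlib 3.10.9.

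The channel genes, the lists and the tests were chosen with earlier results of these data known. Named genes are those called between genotypes or between genotype effects, the highest per kb in each subfamily, the 6 most positive and 6 most negative called in each WT comparison of populations, and the 3 on each side of the level rule; others are marked as chosen later. Of the 60 genes, 2 are part of the counts, sums and shares but are not reported singly here. Of the 60 genes, 8 share exon bases with another gene, and counts there cannot be told apart without the strand setting. Where embryos are not given, p-values measure the spread between these libraries. Library pairs within groups differed more than sampling noise (chi-square per degree of freedom 5.65 to 45.5 over 36 pairs). Same-numbered KO and WT libraries deviated together in PAX6+ (r = 0.231 to 0.567) and PAX6-TBR2- cells (0.111 to 0.444), over 10121 genes, so blocked values are given there where a call changes; in TBR2+ cells they did not all do so (0.0364 to 0.392).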

Additional observations from a re-analysis of the deposited data

Results flagged for a closer look

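In 15 of 215 groups of 4 libraries examined over 36 named genes (6.98%), 1 library lay far from the other 3, with a gap to the nearest over the range of the group above Dixon's 95% critical value. By the construction of that value, which assumes normally distributed values, chance does this in about 1 group in 20. A group with 3 libraries at 0 and 1 above 0 always passes that value. This holds for Kcng3 in WT PAX6+ and WT TBR2+ cells and for Kcnk5 in KO TBR2+ cells, so the 2 shares are not strictly comparable. In PAX6+ cells the libraries apart were KO replicate 3 for Kcna2 (10.2 CPM, others 3.17 to 4.06), and WT replicate 3 for Kcng3 (0.0642 CPM, others 0) and Kcnj5 (2.31 CPM, others 0 to 0.352), and WT replicate 1 for Kcns3 (1.05 CPM, others 0.207 to 0.321). In TBR2+ cells KO replicate 1 stood apart for 4 genes, Kcnj10 (19.5 CPM, others 13.5 to 13.96), Kcnk10 (34.6 CPM, others 25.5 to 26.6), Kcnk5 (0.296 CPM, others 0) and Kcnd2 (4.14 CPM, others 5.32 to 5.42). WT replicate 2 did so there for Kcng3 (0.981 CPM, others 0) and WT replicate 4 for Kcnt2 (7.15 CPM, others 3.87 to 4.08). In PAX6-TBR2- cells KO replicate 1 stood apart for Kcnk10 (15.96 CPM, others 22.5 to 22.8), Kcnmb4 (24.4 CPM, others 15.0 to 16.4) and Kcne1l (0.301 CPM, others 0.751 to 0.801), and WT replicate 1 for Kcnj10 (4.40 CPM, others 7.86 to 8.398) and Kcnrg (2.20 CPM, others 4.15 to 4.20).

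The effect of genotype differed between populations for 7 results over 6 genes, by the test of that difference. For TBR2+ minus PAX6+ cells the log2 differences were -2.60 for Kcna2, -1.15 for Kcna3 and 1.32 for Kcnip1. For PAX6-TBR2- minus PAX6+ cells they were -3.91 for Kcna6, -1.27 for Kcnc1, -0.77 for Kcnn2 and 1.04 for Kcnip1.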

How the results depend on the processing

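Of 1174 alternative values for 55 results on single genes, 58 of those that left out 1 library and 6 others lost the call, none changed direction, and the rest kept their direction and their side of the threshold. Without the filter on low counts, 13 channel genes were called in TBR2+ cells (5 with it), 1 in PAX6-TBR2- cells (0 with it), and 6, 7 and 2 for the difference of genotype effects in TBR2+ minus PAX6+, PAX6-TBR2- minus PAX6+ and PAX6-TBR2- minus TBR2+ cells (3, 4 and 0 with it). Over all genes 485 were then higher and 243 lower in TBR2+ cells (139 and 84 with it). In PAX6-TBR2- cells 11 were higher and 27 lower (1 and 0 with it), and for TBR2+ minus PAX6+ cells 203 and 126 (31 and 58 with it). DESeq2 called 1 in PAX6-TBR2- cells and 1 for PAX6-TBR2- minus TBR2+, and limma-voom 1 for PAX6-TBR2- minus PAX6+; the cause was not tested.

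With the replicate number as a block, 11 were called in PAX6+ cells (8 without), 12 in TBR2+ cells (5 without) and 1 in PAX6-TBR2- cells (0 without). Calls over all genes rose as well. They were 609 higher and 436 lower in PAX6+ cells (348 and 169 without the block). They were 470 higher and 250 lower in TBR2+ cells (139 and 84 without) and 57 higher and 96 lower in PAX6-TBR2- cells (1 and 0 without). In TBR2+ cells the libraries share only a number, and 5 of 8 correlated best with their own number; between populations the block left the counts within 1.5 times. Reads recovered from the normalized tables called 8, 5 and 0 in PAX6+, TBR2+ and PAX6-TBR2- cells, as the raw counts did. When 1 library was left out, the counts were 8 to 9 in PAX6+, 2 to 9 in TBR2+ and 0 in PAX6-TBR2- cells. They were 37 to 42 in KO and 33 to 41 in WT for TBR2+ over PAX6+, 36 to 39 in KO and 42 to 44 in WT for PAX6-TBR2- over TBR2+, and 46 to 48 in KO and 51 to 52 in WT for PAX6-TBR2- over PAX6+ cells. For the differences of genotype effects they were 1 to 4, 1 to 4 and 0.

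The rule for the genes gave 58 with 1 CPM in 8 libraries and 67 with 0.5 CPM in 4. Depth limits genes at a few counts per library, which include most silent subunit and several Kv1 genes in PAX6+ cells.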

Other observations

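Several channel genes lie next to each other in the genome, chosen for mention after their values were seen. Kcnj9 and Kcnj10 are 11.9 kb apart on chromosome 1 on opposite strands; in WT TBR2+ over PAX6+ cells Kcnj9 was higher, with a log2 fold change of 1.02, and Kcnj10 lower, with -3.16. Kcna3 and Kcna2 are 63.1 kb apart on chromosome 3 and were both higher in KO than in WT PAX6+ cells. Kcna1 and Kcna6 are 61.9 kb apart on chromosome 6; Kcna6 was higher in KO PAX6+ cells, and Kcna1 was too low there to be tested.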
